A study of Mus musculus with 7 samples.

Results

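The genes described are 9 synaptic organizers, chosen by name from the 18331 uniquely named genes of the table: the neurexins Nrxn2 and Nrxn3, the neuroligins Nlgn1, Nlgn2 and Nlgn3, the leucine-rich repeat proteins Lrrtm1 and Lrrtm2, and the cerebellins Cbln1 and Cbln2. All 9 were found in the table. They were measured in neurons sorted by fluorescence from dissected arcuate nuclei of mouse embryos at E15.5, with 4 Pomc and 2 Npy libraries. Pomc neurons produce proopiomelanocortin, from which peptides that curb appetite are cut, whereas neuropeptide Y from Npy neurons promotes feeding, and the study set these types side by side to look for regulators of anorexigenic identity. The labels name no strain, reporter allele, sex or pool size for either group, so the model behind the sort is known only as Pomc or Npy. The labels do not say whether replicates came from separate litters, so a p-value here reflects spread between libraries that may be technical.

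Synaptic organizers are adhesion proteins that join both sides of a synapse and recruit its machinery. Neurexins sit on the presynaptic membrane. Neuroligins and LRRTM proteins bind them from the postsynaptic side, and cerebellins are secreted proteins that bridge neurexins to the delta-type glutamate receptors. Neuroligin 1 is known mainly from excitatory synapses, neuroligin 2 from inhibitory ones and neuroligin 3 from both, and LRRTM proteins from excitatory ones. Neurexin genes make a long alpha form from an upstream promoter and a short beta form from an internal one.

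The table holds 1 value per gene, and so adds the transcripts of all start sites of a gene together. Its unit is not stated and was taken as TPM (a transcript level per unit of gene length, with every library set to the same total). Start windows are shown for Nrxn3 and Nlgn1, which have several annotated starts and whose group means differed more than those of Nrxn2, Nlgn2 and Nlgn3. No window was available for Nrxn2, Nlgn3 or Cbln1. Nrxn3 spans 1612.1 kb of chromosome 12 (88722876 to 90334935, plus strand) and Nlgn1 906.2 kb of chromosome 3 (25426215 to 26332460, minus strand), in GENCODE M21 on GRCm38. The windows around their starts are printed from RefSeq on GRCm38.p6, each with 250 bases before the start in lower case and the 50 bases from the start on in capitals.
Nrxn3 start 1 (chr12:88794254-88794553, plus strand): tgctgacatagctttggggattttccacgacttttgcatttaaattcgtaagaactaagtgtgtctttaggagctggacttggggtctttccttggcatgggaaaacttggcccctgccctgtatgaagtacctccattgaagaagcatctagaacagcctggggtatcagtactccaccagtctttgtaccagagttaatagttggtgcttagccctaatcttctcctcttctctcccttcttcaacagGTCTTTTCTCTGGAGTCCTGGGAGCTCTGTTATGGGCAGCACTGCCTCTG
Nrxn3 start 2 (chr12:88953140-88953439, plus strand): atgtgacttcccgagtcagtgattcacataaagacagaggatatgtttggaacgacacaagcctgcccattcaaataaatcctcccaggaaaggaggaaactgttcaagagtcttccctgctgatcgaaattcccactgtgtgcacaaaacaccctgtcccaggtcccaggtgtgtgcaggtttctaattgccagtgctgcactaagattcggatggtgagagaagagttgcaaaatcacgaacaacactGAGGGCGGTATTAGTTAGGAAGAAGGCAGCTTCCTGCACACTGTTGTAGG
Nrxn3 start 3 (chr12:89812233-89812532, plus strand): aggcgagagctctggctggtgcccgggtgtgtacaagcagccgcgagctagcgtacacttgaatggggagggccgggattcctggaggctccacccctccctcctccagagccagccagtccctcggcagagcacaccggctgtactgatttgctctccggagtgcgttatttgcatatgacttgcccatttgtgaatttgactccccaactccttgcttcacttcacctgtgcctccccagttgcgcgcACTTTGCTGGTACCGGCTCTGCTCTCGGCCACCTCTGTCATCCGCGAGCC
Nlgn1 start 1 (chr3:26331860-26332159, minus strand): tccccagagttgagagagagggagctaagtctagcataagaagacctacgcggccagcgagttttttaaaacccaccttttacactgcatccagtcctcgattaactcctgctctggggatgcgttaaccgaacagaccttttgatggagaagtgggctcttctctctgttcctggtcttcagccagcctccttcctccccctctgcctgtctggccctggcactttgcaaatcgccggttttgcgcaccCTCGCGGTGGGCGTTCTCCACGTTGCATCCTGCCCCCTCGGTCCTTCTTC
Nlgn1 start 2 (chr3:26153937-26154236, minus strand): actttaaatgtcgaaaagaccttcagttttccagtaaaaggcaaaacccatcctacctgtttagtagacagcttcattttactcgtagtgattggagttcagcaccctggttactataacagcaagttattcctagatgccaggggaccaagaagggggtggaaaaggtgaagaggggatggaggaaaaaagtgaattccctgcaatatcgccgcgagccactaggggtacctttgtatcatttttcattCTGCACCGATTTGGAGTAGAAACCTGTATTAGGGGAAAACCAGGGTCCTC
Nrxn3 starts 2 and 3 lie 158.9 and 1018.0 kb downstream of start 1, and Nlgn1 start 2 lies 177.9 kb downstream of its start 1. Nrxn3 start 1 itself lies inside the span given above, so no window here covers the upstream end of that span. The Nrxn3 windows hold 2, 6 and 16 CG dinucleotides in the order printed and the Nlgn1 windows 14 and 6, where the median of 32851 promoter windows of this length is 7. None of these 5 windows holds the TATA box letters TATAAA on either strand, which 13.62% of all such windows do. None holds the E-box CAGCTG, a letter run of helix-loop-helix factors that is in 16.3% of all windows. The homeodomain letters TAATTA, in 5.29% of all windows, are likewise in none of the 5. The windows of Nlgn2 and Lrrtm1 are not printed. That of Nlgn2 holds 1 CAGCTG and neither of the other runs, and that of Lrrtm1 holds none of them. Which start the Pomc or Npy neurons used cannot be read from a value per gene.

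The column of Npy replicate 3 was left out, because in all 15223 genes with a value it is the mean of the other Npy columns times a whole percent within 5 of 100. The 6 libraries used had 12493 to 14933 genes above 0. Pomc stood at 352 to 770 TPM in the Pomc libraries against 24.0 and 59.4 TPM in Npy replicates 1 and 2. Npy stood at 2.11 to 152 TPM in the Pomc libraries against 728 and 513 TPM in Npy replicates 1 and 2. Agrp, a further marker gene looked at, was low and overlapped between the groups. It stood at 0 to 6.82 TPM in the Pomc libraries against 5.53 and 1.75 TPM in Npy replicates 1 and 2. The 6 markers of oligodendrocyte precursors on the list used here summed to 228 and 207 TPM in the Npy libraries and to 0.444 to 2.64 TPM in the Pomc libraries, where Olig2 and Cspg4 were listed at 0, and all 6 were called higher in the Npy libraries. Pomc replicate 4 stood apart in other marker lists. Its microglia markers summed to 46.2 TPM, where Pomc replicates 1 to 3 had 0.263 to 2.27 TPM and Npy replicates 1 and 2 had 4.10 and 9.97 TPM. Its astrocyte and radial glia markers summed to 661 TPM, where Pomc replicates 1 to 3 had 277 to 349 TPM and the Npy libraries 648 and 436 TPM. Without this library none of the 9 genes passed the threshold, as with it. The 13 pan-neuronal genes summed to 5671 to 7144 TPM in the Pomc and to 5243 and 4366 TPM in the Npy libraries. In such bulk libraries, fewer cells that make a transcript and less of it per cell cannot be told apart.

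None of the 9 genes passed an adjusted p of 0.05 between Pomc and Npy neurons, by limma on log2(TPM + 1) with Benjamini-Hochberg adjustment over 13845 tested genes, of which 0.412% passed, 0.289% with the Pomc and 0.123% with the Npy libraries higher. At an unadjusted p under 0.05 there was 1 of the 9, Cbln1, where 7.36% of all tested genes lay under that value. The groups did not overlap in 2 of the 9, Cbln1 and Nlgn1, both higher in the Pomc libraries. Of all tested genes, 15.9% did not overlap in either direction and 8.05% did so with the Pomc libraries higher. Log2 fold changes, here always Pomc minus Npy, lay above 0 in 3 and below 0 in 6 of the 9 genes, with a median of -0.09 where the median of all tested genes was 0.02 (51.3% above 0). All 9 passed the filter of 1 TPM in at least 2 libraries. The sort gene Npy, 8.57-fold higher in mean in the Npy libraries, also missed the threshold (limma adjusted p = 0.418), while Pomc passed (0.00454). A missed threshold here does not show that a gene is equal in the groups.

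**Figure D1:**
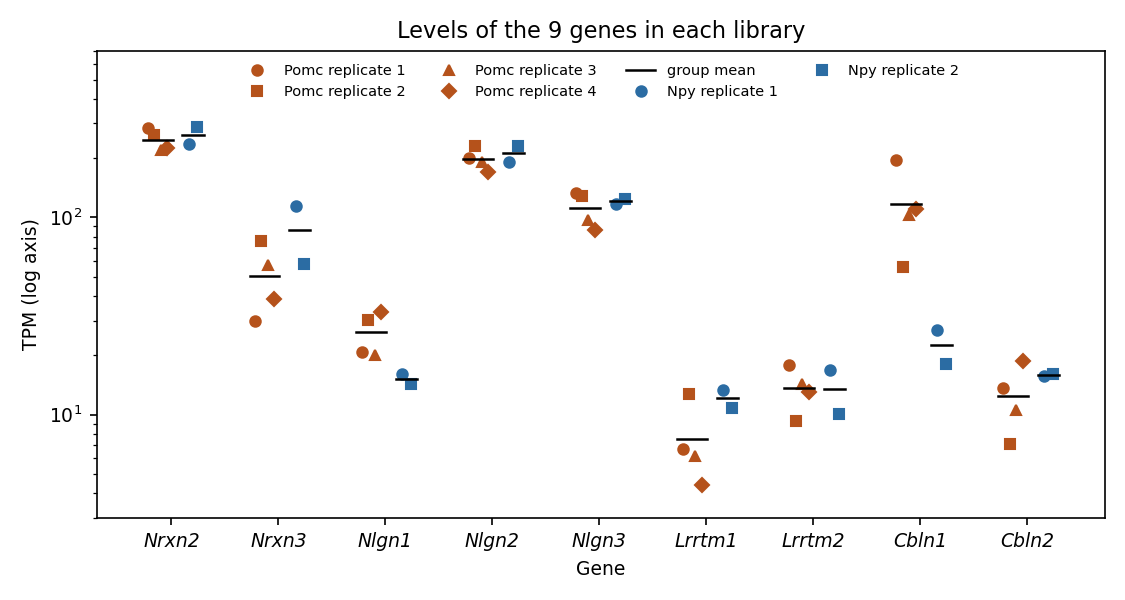
Level of each gene in TPM on a log axis, with 1 point per library (4 Pomc libraries, 2 Npy libraries) and a line at the mean of each group. Cbln1 is the gene with the widest gap, from 18.2 and 26.7 TPM in the Npy libraries to 56.1 to 196 TPM in the Pomc libraries, while Nrxn2, Nlgn2 and Nlgn3 sit at nearly the same height in all 6 libraries.

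The 9 genes spanned a wide range of levels. By the median TPM over the 6 libraries the order was Nrxn2 (250), Nlgn2 (196), Nlgn3 (121), Cbln1 (79.6), Nrxn3 (57.7), Nlgn1 (20.5), Cbln2 (14.7), Lrrtm2 (13.7) and Lrrtm1 (8.75). Nrxn2 lay above 95.9% of all tested genes and Lrrtm1 above 28.9%. Nrxn2 exceeded Nlgn2, and Nlgn2 exceeded Nlgn3, in 6 of 6 libraries, as did Nrxn3 over Nlgn1. The other neighbours changed places between libraries: Nlgn3 exceeded Cbln1 in 3 of 6, Cbln1 exceeded Nrxn3 in 3, Nlgn1 exceeded Cbln2 in 5, Cbln2 exceeded Lrrtm2 in 2 and Lrrtm2 exceeded Lrrtm1 in 4.

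The presynaptic receptor gene Nrxn2 (chromosome 19, 6418731 to 6544169, plus strand) was abundant in both neuron types. It stood at 285, 263, 219 and 226 TPM in Pomc replicates 1 to 4 against 236 and 289 TPM in Npy replicates 1 and 2. The groups overlapped, and the highest library exceeded the lowest only 1.32-fold. The log2 fold change was -0.08 ± 0.19 (SE, limma adjusted p = 0.947), with an unadjusted 95% interval of -0.50 to 0.34. That interval spans 0.707-fold to 1.26-fold, so a difference of 2-fold in either direction lies outside it. Part of an exon of Nrxn2 is shared with Slc22a12 on the opposite strand, and no source used here says whether counting was by strand.

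Nrxn3 was lower than Nrxn2 and much more variable. It stood at 29.8, 76.2, 57.7 and 38.4 TPM in Pomc replicates 1 to 4 against 114 and 57.8 TPM in Npy replicates 1 and 2. Only Npy replicate 1 lay above every Pomc library, and Npy replicate 2 fell inside the Pomc range. The mean was 1.70-fold higher in the Npy libraries (50.5 ± 20.7 TPM, SD, n = 4, against 86.0), and the log2 fold change was -0.77 ± 0.41 (limma adjusted p = 0.773, 95% interval -1.69 to 0.16). Without Npy replicate 1 it was -0.28, and without Npy replicate 2 it was -1.25. Within a library Nrxn2 exceeded Nrxn3 by 3.46-fold to 9.57-fold in the Pomc libraries and by 2.07-fold and 4.999-fold in the Npy libraries. The summed level of these neurexins was 264 to 339 TPM and 350 and 347 TPM.

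The postsynaptic neuroligin genes kept a fixed order in every library, with Nlgn2 highest and Nlgn1 lowest. Nlgn2 (chromosome 11, 69823122 to 69837784, minus strand), the neuroligin of inhibitory synapses, stood at 201, 232, 190 and 169 TPM in Pomc replicates 1 to 4 against 191 and 231 TPM in Npy replicates 1 and 2. Nlgn3 (chromosome X, 101299168 to 101325963, plus strand) stood at 132, 129, 96.6 and 86.6 TPM in the Pomc libraries against 117 and 124 TPM in Npy replicates 1 and 2. In both genes the Npy values fell inside the Pomc range. Their log2 fold changes were -0.09 ± 0.19 and -0.14 ± 0.23 (limma adjusted p = 0.933 and 0.922), with 95% intervals of -0.52 to 0.33 and -0.66 to 0.38 that leave out a 2-fold difference. Nlgn3 shares exon sequence with Gm21986, a transcript gene on the same strand.

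Nlgn1, the neuroligin of excitatory synapses, stood at 20.9, 30.2, 20.1 and 33.4 TPM in Pomc replicates 1 to 4 against 16.2 and 14.3 TPM in Npy replicates 1 and 2. Every Pomc library lay above both Npy libraries, by a small margin for Pomc replicates 1 and 3. The mean was 1.72-fold higher in the Pomc libraries (26.1 ± 6.65 TPM, SD, n = 4, against 15.2). The difference missed the threshold (log2 fold change 0.71 ± 0.38, limma adjusted p = 0.773), and its 95% interval of -0.15 to 1.58 includes no difference and a 2.99-fold one. A two-sided exact permutation test had p = 0.133, where the smallest value that the 15 splits of 6 libraries can give is 0.0667. An annotated antisense RNA gene, A830092H15Rik, shares exon sequence with Nlgn1.

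As shares of the summed neuroligin TPM in a library, Nlgn2 made up 56.7 to 62.0% in the Pomc libraries and 58.9 and 62.6% in the Npy libraries. Nlgn3 made up 30.0 to 37.4% and 36.1 and 33.6%. Nlgn1 made up 5.91 to 11.5% in the Pomc libraries and 4.99 and 3.86% in the Npy libraries. Its share, built from the same Nlgn1 values, did not overlap either. The sum itself was 289 to 391 TPM in the Pomc libraries and 324 and 369 TPM in the Npy libraries and overlapped between the groups.

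**Figure D2:**
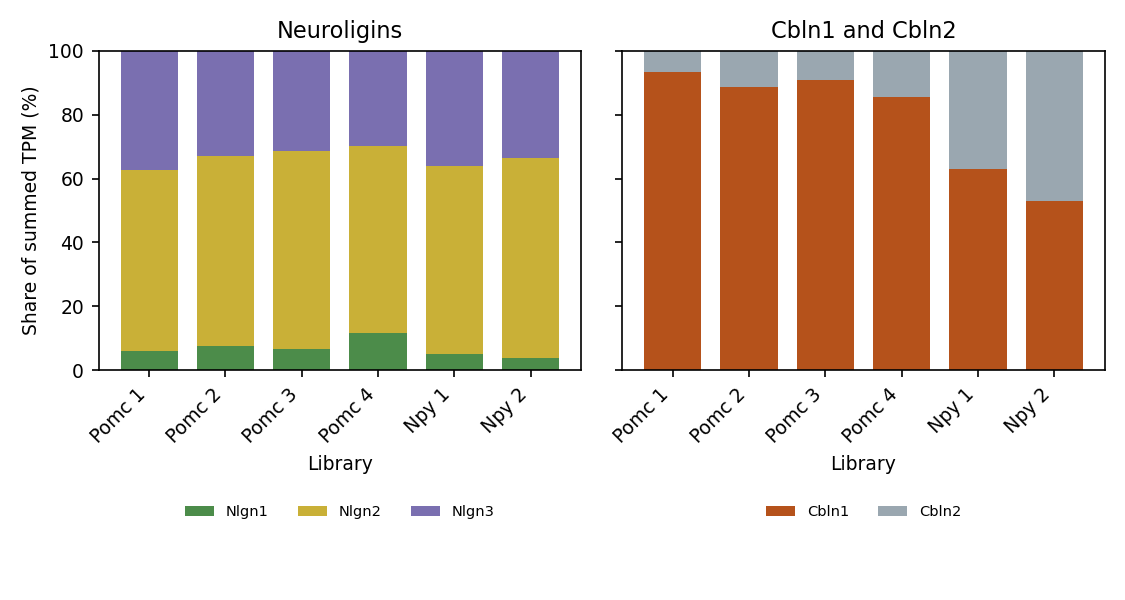
Share of each gene in the summed TPM of its family, in percent, for the neuroligins on the left and for Cbln1 with Cbln2 on the right, with 1 bar per library (4 Pomc, 2 Npy). Nlgn2 takes 56.7 to 62.6% of the neuroligin sum in all 6 libraries, while Cbln1 takes 85.6 to 93.5% of the cerebellin pair in the Pomc libraries and 63.0 and 53.1% in the Npy libraries.

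The LRRTM genes, whose proteins bind neurexins at excitatory synapses, had the lowest medians of the 9 over the 6 libraries, close to that of Cbln2. Lrrtm1 (chromosome 6, 77242689 to 77257791, plus strand) stood at 6.68, 12.8, 6.16 and 4.43 TPM in Pomc replicates 1 to 4 against 13.4 and 10.8 TPM in Npy replicates 1 and 2. Pomc replicate 2 was as high as the Npy libraries and the other Pomc libraries were lower. The log2 fold change was -0.71 ± 0.58 (limma adjusted p = 0.848), with a wide 95% interval of -2.01 to 0.60, from 0.248-fold to 1.51-fold. Lrrtm2 (chromosome 18, 35209003 to 35215024, minus strand) stood at 17.8, 9.34, 14.3 and 13.1 TPM in the Pomc libraries against 16.8 and 10.1 TPM in Npy replicates 1 and 2. Its groups overlapped fully, with a log2 fold change of 0.02 ± 0.48 (adjusted p = 0.993, 95% interval -1.07 to 1.12) that turned negative when the libraries were rescaled. Lrrtm2 lies inside Ctnna1, which is on the opposite strand and shares exon sequence with it, and Lrrtm1 lies in an intron of Ctnna2 on the opposite strand.

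The relatives Lrrtm3 and Lrrtm4, named after their values were seen, were more abundant than Lrrtm1 and Lrrtm2 in the Pomc libraries. Lrrtm3 stood at 28.9, 56.2, 30.8 and 47.3 TPM in the Pomc libraries against 22.0 and 8.35 TPM in Npy replicates 1 and 2. Lrrtm4 stood at 23.3, 23.4, 26.6 and 24.1 TPM in the Pomc libraries against 11.0 and 12.5 TPM in Npy replicates 1 and 2. In both, every Pomc library lay above both Npy libraries, with log2 fold changes of 1.46 ± 0.46 and 0.99 ± 0.37 that missed the threshold (limma adjusted p = 0.42 and 0.564). The Lrrtm3 difference was 2.11 without Npy replicate 1 and 0.81 without Npy replicate 2.

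The secreted cerebellin Cbln1 (chromosome 8, 87468405 to 87472609, minus strand) had the largest difference of the 9 genes. It stood at 196, 56.1, 103 and 111 TPM in Pomc replicates 1 to 4 against 26.7 and 18.2 TPM in Npy replicates 1 and 2. Every Pomc library lay above both Npy libraries, and the lowest Pomc library, replicate 2, was closer to the Npy libraries than to Pomc replicate 1. The mean was 5.19-fold higher in the Pomc libraries (117 ± 58.2 TPM, SD, n = 4, against 22.5). The log2 fold change was 2.21 ± 0.43 with an unadjusted 95% interval of 1.25 to 3.18, and it missed the threshold over all genes (limma adjusted p = 0.0967, unadjusted p = 0.000559). A two-sided exact permutation test had p = 0.0667, the smallest value possible with 15 splits. The call depended on the processing. Cbln1 passed without Pomc replicate 2 (log2 2.52, adjusted p = 0.037), with short RNA genes left out and the rest rescaled (2.17, adjusted p = 0.0487), and with the computed column of Npy replicate 3 counted as a library (2.22, adjusted p = 0.0222). Over all alternatives its adjusted p ranged from 0.0222 to 0.788, the last without Npy replicate 2, when Npy is a single library.

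Genes of the ventromedial nucleus, the neighbour of the arcuate nucleus, summed higher in the Pomc libraries, the same group direction as Cbln1. The list of 5 (Nr5a1, Fezf1, Adcyap1, Bdnf and Cnr1) was added after values were seen. Its sums were 387, 326, 289 and 270 TPM in Pomc replicates 1 to 4 and 35.0 and 28.8 TPM in the Npy libraries. Within the Pomc libraries, replicate 1 was the highest in both the sum and Cbln1. Replicate 2, the lowest in Cbln1, lay above replicates 3 and 4 in the sum. Of the 5, 3 were called higher in the Pomc libraries and none higher in the Npy libraries, and Adcyap1 was listed at 0 in both Npy libraries. Their part in the Cbln1 difference was not tested.

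Cbln2 (chromosome 18, 86711110 to 86718283, plus strand), the second cerebellin, did not share this pattern. It stood at 13.6, 7.11, 10.5 and 18.7 TPM in Pomc replicates 1 to 4 against 15.7 and 16.1 TPM in Npy replicates 1 and 2. The Npy values fell inside the Pomc range, and the log2 fold change was -0.40 ± 0.51 (limma adjusted p = 0.895, 95% interval -1.54 to 0.74). Within a library, Cbln1 exceeded Cbln2 by 5.95-fold to 14.4-fold in the Pomc libraries and by 1.70-fold and 1.13-fold in the Npy libraries. This ratio does not depend on how a library is scaled, and its groups did not overlap. It is built from the same Cbln1 values, whose groups did not overlap, and so is no separate result.

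Other parts of the cerebellin system were measured as well, and are named here after their values were seen. Cbln4, another cerebellin, stood at 36.8, 26.4, 32.1 and 21.3 TPM in the Pomc libraries against 92.0 and 48.6 TPM in Npy replicates 1 and 2, the opposite direction to Cbln1, without passing the threshold (log2 fold change -1.20 ± 0.35, limma adjusted p = 0.38). Grid1, which encodes a delta receptor, a postsynaptic partner of cerebellins, overlapped between the groups. It stood at 17.6 to 26.2 TPM in the Pomc libraries against 43.3 and 16.2 TPM in Npy replicates 1 and 2. Its log2 fold change of -0.36 ± 0.45 (limma adjusted p = 0.893) changed sign, to 0.32, without Npy replicate 1.

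**Figure D3:**
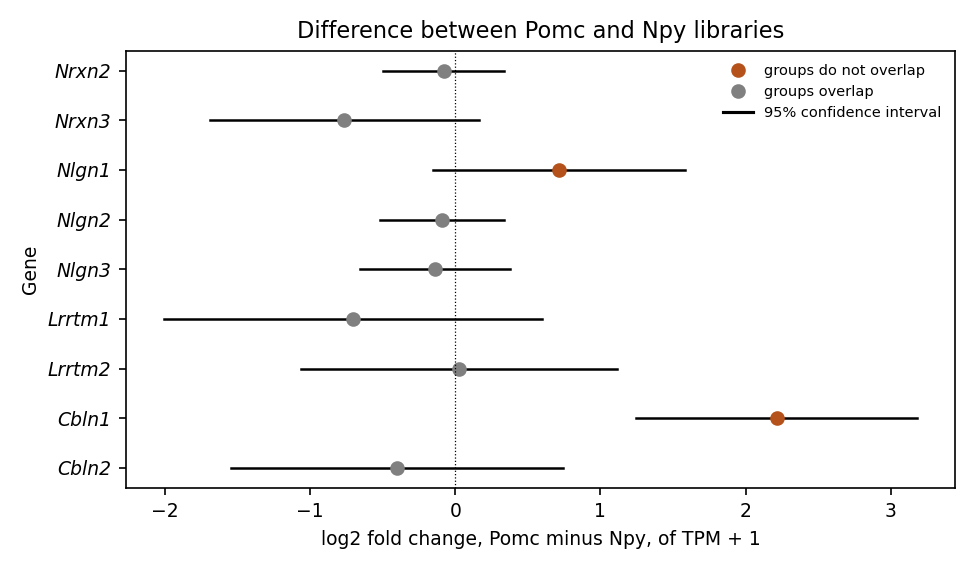
Log2 fold change of TPM + 1, Pomc minus Npy, for each of the 9 genes, with its unadjusted 95% confidence interval from limma as a line and the colour showing whether the 4 Pomc and 2 Npy libraries overlap. Cbln1 is the gene whose interval leaves out 0 (1.25 to 3.18), and the intervals of Nrxn2, Nlgn2 and Nlgn3 stay within 1 log2 unit of 0.

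The wider system was described from 4 lists written from general knowledge. Of 27 tested neurexin ligands and partners, none passed the threshold by limma over all genes. At an unadjusted p under 0.05 there were 12, of which 8 were higher in the Pomc and 4 in the Npy libraries, and 11 had groups that did not overlap. Over all tested genes, 7.36% lay under that p and 15.9% did not overlap. The median log2 fold change of the 27 was 0.26. The largest differences were those of Mdga1, Igsf21 and Fam19a1. Mdga1, which binds neuroligins and blocks their contact with neurexins, stood at 13.1, 10.7, 17.0 and 6.09 TPM in the Pomc libraries against 61.1 and 59.1 TPM in Npy replicates 1 and 2. Each Npy value lay far above each Pomc value, yet the log2 fold change of -2.34 ± 0.45 missed the threshold (adjusted p = 0.0967). The markers of oligodendrocyte precursors lay higher in the same libraries, and their part in the Mdga1 values was not tested.

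Mdga2, its relative with the same known activity, went the other way, at 31.4, 26.4, 30.1 and 30.2 TPM in the Pomc libraries against 16.5 and 4.85 TPM in Npy replicates 1 and 2 (log2 fold change 1.59 ± 0.48, limma adjusted p = 0.396). The log2 fold change was 2.38 without Npy replicate 1 and 0.80 without Npy replicate 2. Igsf21, a neurexin ligand of inhibitory synapses, stood at 0.803 to 7.69 TPM in the Pomc libraries against 21.7 and 13.0 TPM in Npy replicates 1 and 2 (-2.14 ± 0.79, adjusted p = 0.564), and its difference was -1.20 with the replicate number as a block. Fam19a1, of a family of secreted neurexin ligands, stood at 3.75 to 6.77 TPM in the Pomc libraries. It was at 1.77 TPM in Npy replicate 1 and was listed at 0 in Npy replicate 2 (1.87 ± 0.68, adjusted p = 0.564), and its difference was 2.61 and 1.13 without the first and the second of these. In these 3 genes too the groups did not overlap.

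Of 55 other tested synaptic adhesion organizers, 1 was called higher in the Pomc libraries, none higher in the Npy libraries and 54 did not pass, while 0.412% of all tested genes were called. At an unadjusted p under 0.05 there were 12, of which 7 were higher in the Pomc and 5 in the Npy libraries, beside 7.36% of all tested genes. The median log2 fold change of the 55 was 0.00, and 18 of the 55 had groups that did not overlap, beside 15.9% of all tested genes. The called gene was Nptx2, a secreted pentraxin that gathers AMPA-type glutamate receptors at synapses. It stood at 165, 103, 115 and 123 TPM in Pomc replicates 1 to 4 against 4.35 and 21.3 TPM in Npy replicates 1 and 2. All Pomc libraries lay well above both Npy libraries, a 9.86-fold difference in mean (log2 fold change 3.52 ± 0.49, limma adjusted p = 0.0188). The call ended without Pomc replicate 1, 2 or 3 (adjusted p = 0.0765, 0.0512 and 0.0602), with no filter on low values (0.0848), with a single prior variance (0.117) and under a replicate block (0.138). The log2 fold change was 2.49 without Npy replicate 1 and 4.55 without Npy replicate 2. The ventromedial nucleus genes described with Cbln1 moved in the same direction, and their part in the Nptx2 difference was not tested.

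The other pentraxins, named after their values were seen, lay in the same direction without passing. The pentraxin receptor gene Nptxr stood at 262, 188, 193 and 203 TPM in the Pomc libraries against 109 and 104 TPM in Npy replicates 1 and 2 (log2 fold change 0.97 ± 0.19, limma adjusted p = 0.109). Nptx1 stood at 47.9, 17.2, 26.2 and 26.6 TPM and at 9.67 and 10.03 TPM (1.40 ± 0.46, adjusted p = 0.467). In both genes every Pomc library lay above both Npy libraries.

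Of the 119 tested genes on the 4 lists, the 3 whose values followed those of Cbln1 most closely over the 6 libraries were Lrfn2, Nptx1 and Mdga2. The measure was the mean absolute difference of log2(TPM + 1) after each gene was centred on its own mean, which was 0.344, 0.362 and 0.495 for these genes and had a median of 1.09 over the 119. Lrfn2, a postsynaptic adhesion gene, stood at 18.5, 6.36, 15.9 and 10.2 TPM in the Pomc libraries against 5.59 and 1.62 TPM in Npy replicates 1 and 2. Its log2 fold change was 2.29 without Npy replicate 1 and 0.96 without Npy replicate 2. As with Cbln1, Pomc replicate 1 was the highest library and Pomc replicate 2 the lowest Pomc library in Lrfn2 and Nptx1. Both genes were picked for following Cbln1 over these same libraries, so this likeness is part of the choice and no further result.

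**Figure D4:**
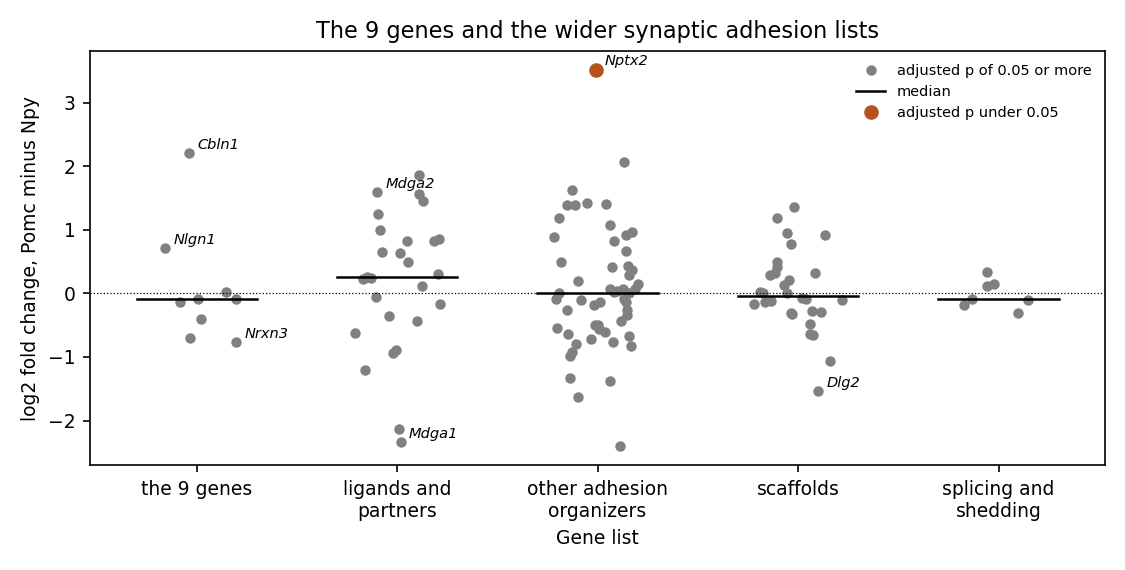
Log2 fold change, Pomc minus Npy, of each tested gene, with 1 point per gene, a line at the median of each list and the horizontal position within a list set at random. The orange point is Nptx2 (3.52), the gene past an adjusted p of 0.05 on these lists, and the medians of the lists lie between -0.09 and 0.26.

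Among 30 tested scaffold genes, which anchor neurexins or neuroligins inside the cell, none passed by limma over all genes and the median log2 fold change was -0.04. At an unadjusted p under 0.05 there were 4, of which 3 were higher in the Pomc and 1 in the Npy libraries, beside 7.36% of all tested genes. In 9 of the 30 the groups did not overlap, beside 15.9% of all tested genes. Dlg2, which encodes the scaffold PSD-93, had the largest difference, at 16.0, 11.5, 19.8 and 16.7 TPM in the Pomc libraries against 58.2 and 38.4 TPM in Npy replicates 1 and 2 (-1.53 ± 0.38, adjusted p = 0.251). All 4 Pomc libraries lay under both Npy libraries. Homer2, a scaffold of glutamate synapses, stood at 8.28 to 13.7 TPM and at 4.98 and 3.87 TPM (1.19 ± 0.53, adjusted p = 0.675).

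The best known scaffold partners were named after their values were seen. Dlg4, which encodes PSD-95, the excitatory scaffold that binds neuroligin 1, stood at 279 to 396 TPM in the Pomc libraries against 406 and 436 TPM in Npy replicates 1 and 2 (log2 fold change -0.33 ± 0.18, limma adjusted p = 0.786). Gphn, which encodes gephyrin, the inhibitory scaffold that binds neuroligin 2, overlapped between the groups, at 42.1 to 51.5 TPM and at 55.0 and 21.5 TPM. Cask, the presynaptic kinase-like scaffold that binds neurexins, stood at 99.5 to 109 TPM and at 98.9 and 74.8 TPM (0.29 ± 0.20, adjusted p = 0.815).

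The last list held 7 genes of neurexin splicing and of the shedding of these proteins from the membrane. None passed by limma over all genes, none lay at an unadjusted p under 0.05, and the median log2 fold change was -0.08. The largest differences were 0.34 ± 0.50 for the protease gene Adam17, -0.31 ± 0.44 for Khdrbs2, whose product regulates neurexin splicing, and -0.18 ± 0.25 for the protease gene Bace1 (limma adjusted p = 0.911, 0.908 and 0.903). Khdrbs2 stood at 22.8 to 60.8 TPM in the Pomc libraries against 60.1 and 30.9 TPM in Npy replicates 1 and 2.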

How the data were processed

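The authors deposited 1 table of 18335 rows with a column for each of 7 samples, and its header gives no unit. The values were taken as TPM from the values themselves, since 6 of the 7 columns deposited by the authors sum to 1000000 and short RNA genes stand high. Values not divided by gene length can also sum to 1000000. Levels, shares and ratios set between different genes therefore rest on this reading. HISAT2, edgeR 3.8 and the mm10 build appear in the submitters' processing notes without a stated role. No source used here gives the counting tool, annotation, strand setting or gene lengths, and a TPM table holds no read numbers, so no counting error is given. Rows of 2 repeated symbols (4 rows) and the computed column of Npy replicate 3 were left out. The short RNA gene Rpph1 took 5.11 to 6.43% of the Pomc and 7.11 and 8.57% of the Npy libraries, so TPM of all other genes moves with it.

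Genes with at least 1 TPM in at least 2 of the 6 libraries (13845 genes) were fitted on log2(TPM + 1), where the pseudocount of 1 understates the change of low genes, with limma 3.58.1 (R 4.3.3) and a prior variance that depends on the mean level. P-values were adjusted by Benjamini-Hochberg over all of them, two-sided, at a threshold of 0.05. Coordinates come from GENCODE M21 (GRCm38), and start windows from RefSeq (GRCm38.p6). Chromosome 18, with Lrrtm2 and Cbln2, was left out of the windows. The source used had no window for Nrxn2, Nlgn3 and Cbln1, so 4 of the 9 genes had windows. The genes and lists were chosen with earlier results of these data known. Besides the 9 genes, the text names, on each list, the genes past the threshold or, with none, the 3 with the largest absolute log2 fold change, and the 3 genes most like Cbln1. A scaffold gene that this rule picks is not reported here. Other genes are marked as named after their values were seen. The 15 alternatives were other pseudocounts (0.1, 0.5), filters, scalings, variance priors, all 7 columns, a replicate block and leaving out each library.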

Additional observations from a re-analysis of the deposited data

How the results depend on the processing

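Of the 9 genes, Nrxn3, Nlgn1, Lrrtm1, Cbln1 and Cbln2 kept the direction of their difference under all 15 alternatives, and no gene but Cbln1 passed the threshold in any. The count of genes passed among the 9 rose from 0 to 1 (Cbln1) with all 7 columns (log2 fold change 2.22), without short RNA genes (2.17) and without Pomc replicate 2. The cause was not tested. Leaving out 1 library gave 0 to 1 passed genes of the 9, 0 to 1 among the other adhesion organizers, and 22 to 69 of all tested genes where 57 passed with all 6 libraries. All tested genes that passed numbered 37 with a pseudocount of 0.1, 33 with no filter on low values and 205 with all 7 columns, which treats the computed column as a measurement.

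Small differences changed sign. Lrrtm2 stood at -0.002 with all 7 columns, -0.012 with median-ratio scaling and -0.026 without short RNA genes, and between -0.319 and 0.369 when 1 library was left out. The same ranges were -0.227 to 0.065 for Nrxn2, -0.231 to 0.043 for Nlgn2, -0.231 to -0.028 for Nlgn3, -1.25 to -0.281 for Nrxn3, 0.589 to 0.824 for Nlgn1, -0.966 to -0.519 for Lrrtm1, 1.921 to 2.516 for Cbln1 and -0.607 to -0.18 for Cbln2. Among the other named genes they were -0.146 to 0.835 for Adam17, -0.781 to 0.154 for Khdrbs2, -1.042 to 0.321 for Grid1 and -0.239 to 1.074 for Gphn. Of the lists, all 7 columns gave 2 passed neurexin ligands and partners, 3 other adhesion organizers and 1 scaffold gene, and no filter on low values gave 0 other adhesion organizers.

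Replicates 1 and 2 occur in both groups, but nothing says that a number marks a shared litter or day, and deviations from the group means correlated at r = -0.044 and -0.033 across genes in the same-numbered pairs. With the number as a replicate block 12 of all tested genes passed, none of the 9 and 0 other adhesion organizers, and the log2 fold changes were 0.069 for Nrxn2, 0.038 for Nlgn2, 0.116 for Nlgn3 and -0.012 for Lrrtm2. The 2 Npy libraries limit every interval given, and the lowest genes, Lrrtm1, Lrrtm2 and Cbln2, have the widest.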

Other observations

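Over the 4 Pomc libraries, Cbln1 stood in the same order as Pomc, the gene that names the sort. Pomc was at 770 TPM in replicate 1, 553 in replicate 4, 397 in replicate 3 and 352 in replicate 2, and Cbln1 at 196, 111, 103 and 56.1 TPM. In Npy replicates 1 and 2 the order was opposite, with 24.0 and 59.4 TPM of Pomc and 26.7 and 18.2 TPM of Cbln1. Over the 4 Pomc libraries the pentraxin genes Nptx1, Nptx2 and Nptxr stood in the same order as Pomc too, so the order is not particular to Cbln1. Nptx1 had been picked for following Cbln1 over these same libraries. How many of all tested genes stood in this order was not counted. This order was noticed after the values were seen and was not tested.

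Among the cerebellins and among the MDGA genes, values of close relatives lay in opposite directions between the same libraries, none past the threshold. Cbln1 lay higher in the Pomc libraries and Cbln4 in the Npy libraries, Mdga2 higher in the Pomc and Mdga1 in the Npy libraries. In each of these 4 genes, set side by side after the values were seen, the groups did not overlap, beside 15.9% of all tested genes. In Cbln2, and in Cbln3 at 2.25 TPM or less, the groups overlapped. Lrrtm3 and Lrrtm4 lay higher in the Pomc libraries, while the level of Lrrtm2 overlapped between the groups.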
